A study of Mus musculus with 20 samples.

Results

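Cc2d2a and 8 other genes of the ciliary transition zone (Cep290, Rpgrip1, Rpgrip1l, Tctn1, Tmem67, Mks1, B9d1 and Ahi1) were followed in mouse retina after a short course of NACET in young and old animals. The members were listed by name, 9 of the 35006 genes counted in each library, and all 9 passed the filter on low counts in every comparison. Cc2d2a was chosen from its lower level in old NACET-treated mice, so its values in the old groups are given as a description, and those of the others under NACET in old mice likewise. NACET is N-acetylcysteine ethyl ester, a form of the thiol antioxidant N-acetylcysteine that enters cells more readily.

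Polyadenylated RNA of 20 retinas from wild-type C57BL/6J mice was sequenced. The untreated groups were young control (4 mice, 119 days old) and old control (4 mice, 668 days). The treated groups received NACET in the drinking water for 5 days at 50 mg/kg per day. The young NACET group held 4 mice of 129 days and 2 of 119 days, with 1 of the latter carrying a batch tag of 129 days, and the old NACET group held 2 mice each of 668, 581 and 574 days. Age and treatment therefore do not match exactly within either pair of groups. In the labels, 2 of the 4 young controls and 2 of the 6 young NACET mice are female and all others male.

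Gene counts were 17700500 to 31081959 per library. The library of old control replicate 4 is labelled male but held 59555 Xist counts and 1 count from Y-linked genes, which goes against its label. Old control replicate 2 carried 556 CPM of corneal epithelium genes, against at most 62.6 CPM in the other old libraries. Old NACET replicate 1 carried 7174 CPM of lens genes, against at most 15.6 CPM in the other old libraries. Young NACET replicates 3, 4 and 5 carried 199, 488 and 269 CPM of corneal epithelium genes. The 10 rod genes summed to 65005 CPM or more in each library and none was at 0, as a retina should have. Fits without the 3 old libraries, and without the 3 young NACET libraries, both chosen after seeing the data, are given beside the results. Leaving out old control replicate 4 alone moved the log2 differences of the 9 members by -0.04 to 0.04 and changed no call. No pair of replicates within a group agreed within sampling noise. The labels do not say how cages or litters were shared, so p-values measure the spread between these mice.

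The transition zone lies at the base of the cilium, where Y-shaped links join the microtubule doublets to the membrane and gate the passage of proteins. In rods and cones it is drawn out into the connecting cilium, through which opsins and the other proteins of the outer segment pass. Cc2d2a, Tctn1, Tmem67, Mks1, B9d1 and Ahi1 belong to the Meckel syndrome (MKS) complex of this gate, while Cep290 and Rpgrip1l are scaffolds that hold the links, and Rpgrip1 anchors the RPGR protein in the photoreceptor. Inherited loss of these genes causes Joubert and Meckel syndromes or retinal degeneration.

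In the genome build of the counts (mm9), Cc2d2a spans chr5:44053618-44132211 on the plus strand, with 40 exon blocks and 6.78 kb of exon. Its product carries a C2 domain and sits at the membrane side of the gate. The 250 bases that precede its annotated start are shown because Cc2d2a had the largest difference among the members (RefSeq, GRCm38.p6, chr5:43662129-43662378, plus strand, no part capitalised).
Cc2d2a: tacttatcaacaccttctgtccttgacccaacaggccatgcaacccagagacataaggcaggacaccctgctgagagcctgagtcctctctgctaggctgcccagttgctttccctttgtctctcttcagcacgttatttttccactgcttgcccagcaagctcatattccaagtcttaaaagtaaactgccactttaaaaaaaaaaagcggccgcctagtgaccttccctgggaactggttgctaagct

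Promoter windows of 250 bases before and 50 after the start were found for 8 of the 9 members, Ahi1 with an entry for 2 starts, and none was listed for Tmem67. The X-box is the motif bound by RFX factors, which regulate many ciliary genes, and it was searched as an inverted repeat of 14 bases. It was present in the windows of Tctn1 and Ahi1 and in 0.691% of all 32851 windows. These sites are shown as the stretches of the members that carry the motif (capitals), which begins 37 bases after the start of Tctn1 (GRCm38.p6, chr5:122264411-122264440, minus strand) and 22 bases after that of Ahi1 (chr10:20952560-20952589, plus strand).
Tctn1: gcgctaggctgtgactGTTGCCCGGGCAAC
Ahi1: tagtctgaGTTACCTAGGCAACagcggcag

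The GTTGCC arm of the X-box, searched on both strands and overlapping the full motif, was found in the windows of Tctn1, Ahi1, B9d1 and Mks1 and in 12.5% of all windows. The antioxidant response element core TGACNNNGC, the element bound by NRF2, was in no member's window and in 12.4% of all windows. These matches describe the letters of the windows only.

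Levels below are CPM, the counts of a gene per 1000000 counts, on library totals scaled by the trimmed mean of M-values (TMM), and levels between genes are compared per kb of exon. Rpgrip1, whose product is restricted mostly to photoreceptors, was the highest of the 9 genes at 147 ± 15.2 CPM per kb (SD, n = 20). Ahi1 followed at 44.1 ± 3.68, Cep290 at 31.5 ± 3.11 and Cc2d2a at 15.0 ± 2.07 CPM per kb (SD, n = 20). The remaining members were lower, B9d1 at 8.03 ± 0.971, Mks1 at 7.72 ± 0.459, Tctn1 at 6.87 ± 0.740, Tmem67 at 4.04 ± 0.318 and Rpgrip1l at 3.39 ± 0.252 CPM per kb (SD, n = 20). Most neighbours in this order kept it in 20 of 20 libraries, but B9d1 exceeded Mks1 in only 12 and Mks1 exceeded Tctn1 in 17. The order of those 2 pairs of neighbours thus did not hold in every library, and it was not tested. The lengths include exon bases shared with genes on the other strand, 20.4% in Tctn1, 16.9% in Rpgrip1, 9.69% in Cep290 and a smaller share in Tmem67. Counting did not use strand, and the levels were not corrected for this. The places of B9d1, Mks1 and Tctn1 are therefore not settled. Over all libraries the coefficient of variation ran from 5.95% for Mks1 to 13.8% for Cc2d2a.

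**Figure D1:**
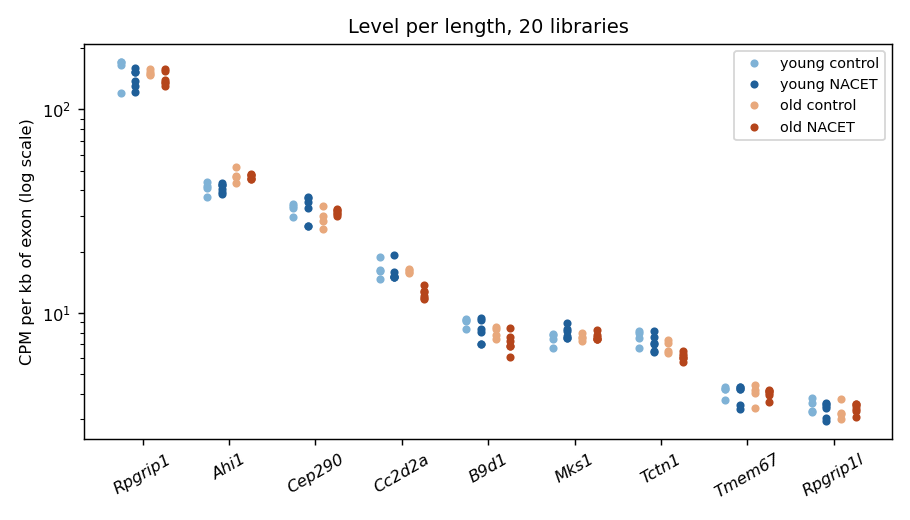
Level of each member per length in 20 retina libraries, in TMM-scaled CPM per kb of exon on a log axis, with a point for each library coloured by group and genes ordered by their mean. Rpgrip1 lies between 121 and 171 CPM per kb, apart from all others, while B9d1, Mks1 and Tctn1 overlap.

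Cc2d2a was lower in old NACET mice than in every other group, and its level differed little among the other 3. The 4 young control libraries held 108, 128, 109.6 and 99.6 CPM. The 6 young NACET libraries ran from 101.5 to 130.3 CPM with a median of 102.4. The old control libraries held 109.6, 112, 108 and 106 CPM. The 6 old NACET libraries ran from 79.4 to 92.6 CPM with a median of 83.9, and all 6 lay below every one of the 14 other libraries.

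The group means of Cc2d2a were 111 ± 11.7 CPM in young controls (SD, n = 4), 108 ± 11.3 CPM in young NACET (SD, n = 6), 109 ± 2.32 CPM in old controls (SD, n = 4) and 84.6 ± 4.90 CPM in old NACET mice (SD, n = 6). Under NACET in old mice Cc2d2a differed by -0.37 on the log2 scale (SE 0.05), or -22.4%. In old against young NACET mice the difference was -0.35 (SE 0.06), and between old and young controls it was -0.03 (SE 0.07). The choice of the gene compared the old NACET with the old control libraries. Each of these differences draws on those libraries, so no test is given for these values. The counts behind them were 1666 to 3493 per library.

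In young mice, which the choice did not use, NACET left Cc2d2a without a detectable change (log2 change -0.05, SE 0.08, edgeR adjusted p = 1.0). The difference between the NACET effects in old and young mice was -0.32 on the log2 scale (SE 0.10), again as a description. Without the 3 young NACET libraries that carry corneal genes Cc2d2a differed by 0.0011 (SE 0.11) under NACET in young mice, by -0.40 (SE 0.08) with age in NACET mice and by -0.37 (SE 0.11) in the interaction. Among the young mice, replicate 1 of the NACET group was the highest of all 20 libraries at 130.3 CPM.

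The values of Cc2d2a in old mice are given by age as a description, since the choice of the gene used these libraries. All old controls were 668 days old, so the mice of 581 and 574 days had no controls of their age. The old NACET mice of 668 days, the age of the controls, held 80.5 and 92.6 CPM, those of 581 days 82.1 and 79.4 CPM, and those of 574 days 85.7 and 87.04 CPM. With the 668-day mice alone the log2 difference from old controls was -0.33 (SE 0.07), and with age cohort as a covariate it was -0.33 (SE 0.06). Without old control replicate 4, whose sex-linked counts go against its label, it was -0.38 (SE 0.05), and without the 3 old libraries that stand apart it was -0.35 (SE 0.07). Relative to the rod genes of the same library it was -0.31.

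**Figure D2:**
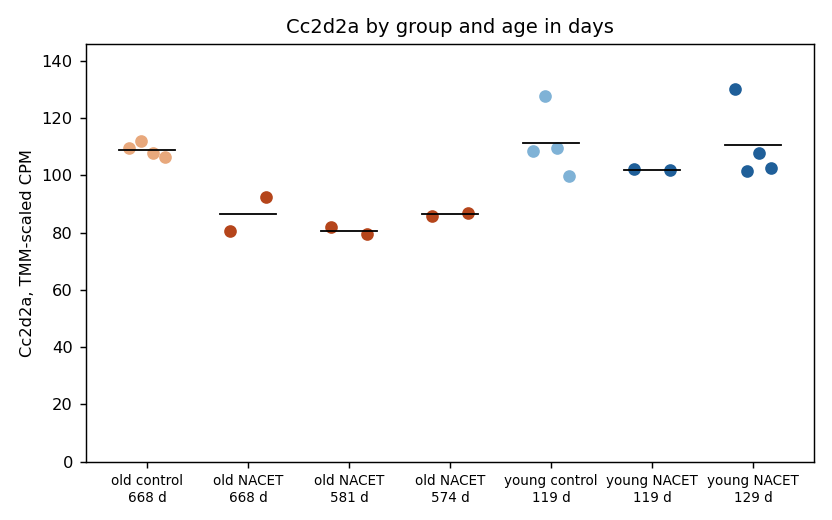
Cc2d2a in each library in TMM-scaled CPM, grouped by treatment group and age in days, with a line at each mean. The old NACET mice lie between 79.4 and 92.6 CPM at all 3 ages, and the old controls between 106 and 112 CPM.

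The levels of other lists in the old groups stood as follows. The 8 immediate early genes, which are transcribed within minutes of a stimulus, summed to 65.2 to 74.7 CPM in old NACET and 89.0 to 123 CPM in old control libraries without overlap. All 8 were lower and 3 of them were called, against 0.543% of all genes, and none was at 0. The 7 pigment epithelium genes summed to 33.1 to 114 CPM in old NACET and 96.6 to 216 CPM in old controls, with 7 of 7 lower, 0 called and none at 0. Of the 10 rod genes 7 were lower, 0 called and none at 0, and their sums overlapped at 65005 to 78367 and 70407 to 89343 CPM. Of the 6 corneal epithelium genes 5 were tested, and all 5 were lower with 3 called. Their sums were 0.823 to 16.6 CPM in old NACET and 10.2 to 556 CPM in old control libraries. All 7 amacrine and horizontal genes and all 6 ganglion cell genes were higher, with 0 called. Of the 6 cone genes 2 were higher, 1 of them called, and 4 were lower. The part of these lists in the result for Cc2d2a was not tested. In bulk retina, fewer cells of a type and less RNA per cell cannot be told apart.

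**Figure D3:**
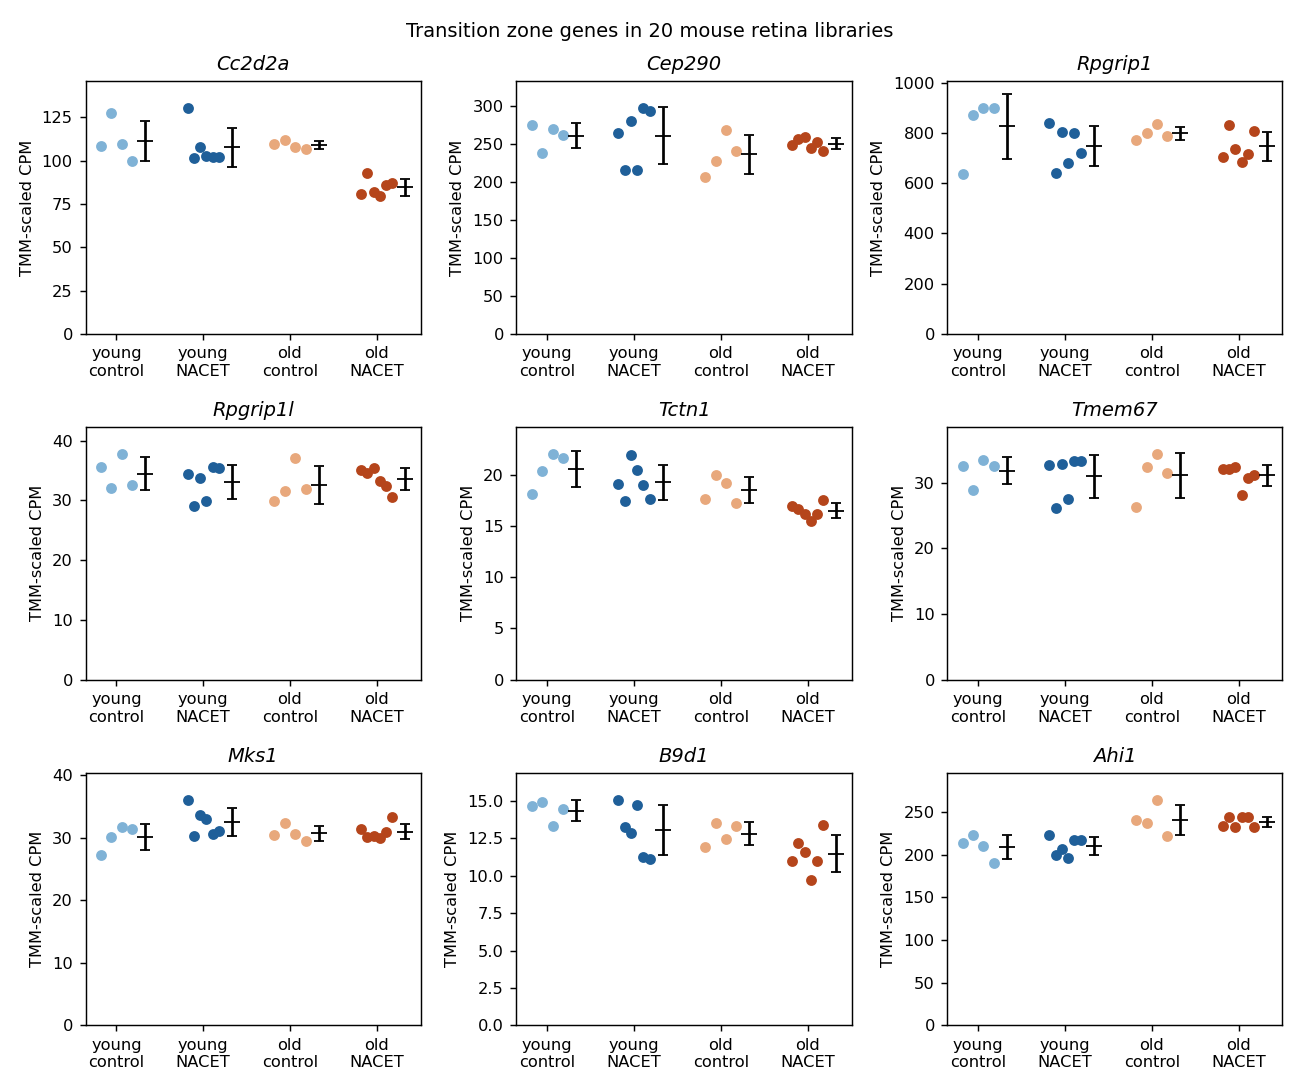
TMM-scaled CPM of the 9 members in each of 20 libraries by group, from 0, with a bar at the mean and its SD (n = 4 or 6). Cc2d2a in old NACET mice lies wholly below the other groups, and the means of Ahi1 are higher in the old groups than in the young.

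Ahi1 had a higher mean in old than in young mice, both untreated and treated. It encodes jouberin, which binds at the transition zone and is needed for outer segment formation, and spans chr10:20672391-20800234 (mm9, plus strand). The young control libraries held 214, 223, 210.2 and 190.0 CPM and the old control libraries 240.2, 237, 264 and 222 CPM. The young NACET libraries ran from 196 to 222 CPM with a median of 212, and the old NACET libraries from 232 to 244 CPM with a median of 238. The control groups overlapped narrowly and the NACET groups did not overlap.

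Ahi1 rose between young and old NACET mice by 0.18 on the log2 scale (SE 0.04, edgeR adjusted p = 0.0257), from 209.9 ± 10.8 CPM to 238 ± 6.10 CPM (SD, n = 6 each). Among controls, in other libraries, it differed by 0.20 (SE 0.07), which did not pass (edgeR adjusted p = 0.171), nor without old control replicate 4 (0.24, SE 0.07, edgeR adjusted p = 0.195). The difference between these age effects, which is also the interaction, was -0.02 (SE 0.08). The old NACET mice of 668, 581 and 574 days averaged 238.4, 238.3 and 237.8 CPM. The call in NACET mice was lost without old NACET replicate 2, 4 or 5 (edgeR adjusted p = 0.060, 0.0601 and 0.0568). Of the settings other than single libraries left out, 2 lost it. Among them was the fit without the 3 young NACET libraries that carry corneal genes (0.16, SE 0.05, edgeR adjusted p = 0.0865). Over all alternatives of the call the adjusted p ran from 0.000625 to 0.111. The call held in labelled males (0.20, SE 0.05, edgeR adjusted p = 0.0331). It also held without old NACET replicate 1 (0.19, SE 0.05, edgeR adjusted p = 0.0437), the only one of the old libraries that stand apart in this comparison. In labelled male controls the difference was smaller (0.14, SE 0.09, edgeR adjusted p = 0.527).

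Values of other lists in the same NACET groups stood as follows, with 4.88% of all genes called. The mean log2 CPM of 7 Muller glia genes was 7.57 to 7.99 in old and 7.38 to 7.56 in young NACET libraries without overlap, while their sums overlapped at 2705 to 3037 and 2619 to 2932 CPM. Of these genes 5 were higher in old mice, 1 of them called, and none was at 0. The 7 microglia genes, 4 of them called higher and none at 0, summed to 32.3 to 40.1 CPM in old and 22.4 to 33.9 CPM in young NACET libraries. Of the 8 immediate early genes 6 were lower and 2 higher, with 3 called lower and none at 0. They summed to 65.2 to 74.7 CPM in old and 84.3 to 104 CPM in young NACET libraries. Of the 6 corneal epithelium genes 5 were tested, and all 5 were called lower in old mice. All 6 cone genes were lower with 2 called, and all 7 pigment epithelium genes were lower with 1 called. Of the 10 rod genes 9 were lower and 1 higher, with 1 called in each direction. Reads outside annotated genes were 17.1% to 20.5% in old and 14.1% to 18.7% in young NACET libraries. The part of these values in the result for Ahi1 was not tested.

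Tctn1 (tectonic 1, a secreted or membrane-associated protein of the MKS complex, chr5:122691296-122714469, minus strand) had its lowest mean in old NACET mice. The young control libraries held 18.1, 20.4, 22.02 and 21.6 CPM and the old control libraries 17.6, 20.0, 19.2 and 17.2 CPM. The young NACET libraries ran from 17.4 to 21.9 CPM with a median of 19.0, and the old NACET libraries from 15.4 to 17.5 CPM with a median of 16.4. Only the highest old NACET library thus reached into the range of young NACET mice. The group means were 20.5 ± 1.76 CPM in young controls (SD, n = 4), 19.2 ± 1.72 CPM in young NACET (SD, n = 6), 18.5 ± 1.30 CPM in old controls (SD, n = 4) and 16.5 ± 0.726 CPM in old NACET mice (SD, n = 6). With age in NACET mice it differed by -0.22 on the log2 scale (SE 0.06), just short of the threshold (edgeR adjusted p = 0.0564). It passed without young NACET replicate 2 or 6 or old NACET replicate 6 (edgeR adjusted p = 0.0390, 0.0366 and 0.0472), and also with DESeq2, with all 4 groups in one fit, with sex as a covariate and in labelled males. Without the 3 young NACET libraries that carry corneal genes it was -0.13 (SE 0.07), and its adjusted p over all alternatives ran from 0.0230 to 0.293. For controls the difference was -0.15 (SE 0.09, edgeR adjusted p = 0.426), and between old NACET and old control mice it was -0.17 (SE 0.06). Its exons share 20.4% of their bases with Hvcn1 on the other strand, and counting did not use strand.

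B9d1, which has a B9 domain and is the member with the fewest counts (199 to 423 per library), followed a like order of group means. They were 14.4 ± 0.7099 CPM in young and 12.8 ± 0.761 CPM in old controls (SD, n = 4 each), and 13.1 ± 1.66 CPM in young and 11.5 ± 1.25 CPM in old mice given NACET (SD, n = 6 each). None of these differences passed. The log2 difference was -0.16 (SE 0.08, edgeR adjusted p = 0.354) between old and young controls and -0.19 (SE 0.09, edgeR adjusted p = 0.266) between old and young NACET mice. Mks1, the other B9-domain member, stayed between 27.2 and 36.1 CPM in all 20 libraries, with group means of 30.1 ± 2.07 CPM in young and 30.7 ± 1.22 CPM in old controls (SD, n = 4 each), and 32.5 ± 2.24 CPM in young and 31.0 ± 1.24 CPM in old NACET mice (SD, n = 6 each).

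Tmem67 encodes meckelin, a receptor-like protein that spans the membrane, and its group means lay between 31.0 and 31.9 CPM. Its log2 differences in the 5 comparisons ran from -0.04 to 0.04. The scaffold genes varied more between libraries than between groups. Cep290, which links the doublets to the membrane, had group means of 236 to 260.5 CPM and ran from 215 to 297 CPM within the young NACET group alone. Its log2 difference between old and young controls was -0.14 (SE 0.08, edgeR adjusted p = 0.401), and between old and young NACET mice -0.06 (SE 0.08, edgeR adjusted p = 0.704). Rpgrip1l had group means of 32.6 to 34.5 CPM. Rpgrip1 had group means of 746 to 826 CPM, and its young control libraries held 635, 871, 898 and 899 CPM, with replicate 1 well below the others. Of the exon bases, 16.9% in Rpgrip1 are shared with Supt16h and 9.69% in Cep290 with 4930430F08Rik on the other strand.

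Over the whole set, few members passed the test. Between old and young controls edgeR called 0 of 9 members, against 1.42% of all genes tested, with Ahi1 alone at an unadjusted p under 0.05 and 0 called by DESeq2. The members' median log2 difference was -0.05 and that of all genes -0.01. For NACET in young mice edgeR called 0 of 9, against 0.0% of all genes. None reached an unadjusted p under 0.05, and DESeq2 called 0. The log2 changes there ran from -0.15 (Rpgrip1) to 0.11 (Mks1), each within 2 times its own SE.

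For NACET in old mice the call of Cc2d2a was 1 of 9, against 0.543% of all genes, and nothing is read from it since it chose the gene. The other 8 members differed by -0.17 (Tctn1) to 0.08 (Cep290) on the log2 scale, 3 upwards and 5 downwards. Of the 8 members other than Cc2d2a, 1 was called between old and young NACET mice, Ahi1, against 4.88% of all genes. For the interaction of NACET with age edgeR called 0 of 9, against 0.0% of all genes, and DESeq2 called 0. Of the 8 members other than Cc2d2a, 0 had an unadjusted p under 0.05. The age comparisons in control and in NACET mice share no library, nor do the NACET comparisons in old and in young mice, while all other pairs of comparisons share libraries.

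Separation of groups gave a like picture. The groups overlapped for 9 of 9 members between old and young controls, where 10.3% of genes had groups that did not overlap. They overlapped for 9 of 9 members under NACET in young mice, where that share was 0.784%. Under NACET in old mice the groups of Cc2d2a alone did not overlap, against 3.8% of genes, which the choice of the gene fixed. Of the other 8 members, those of Ahi1 did not overlap between old and young NACET mice, against 3.35% of genes.

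**Figure D4:**
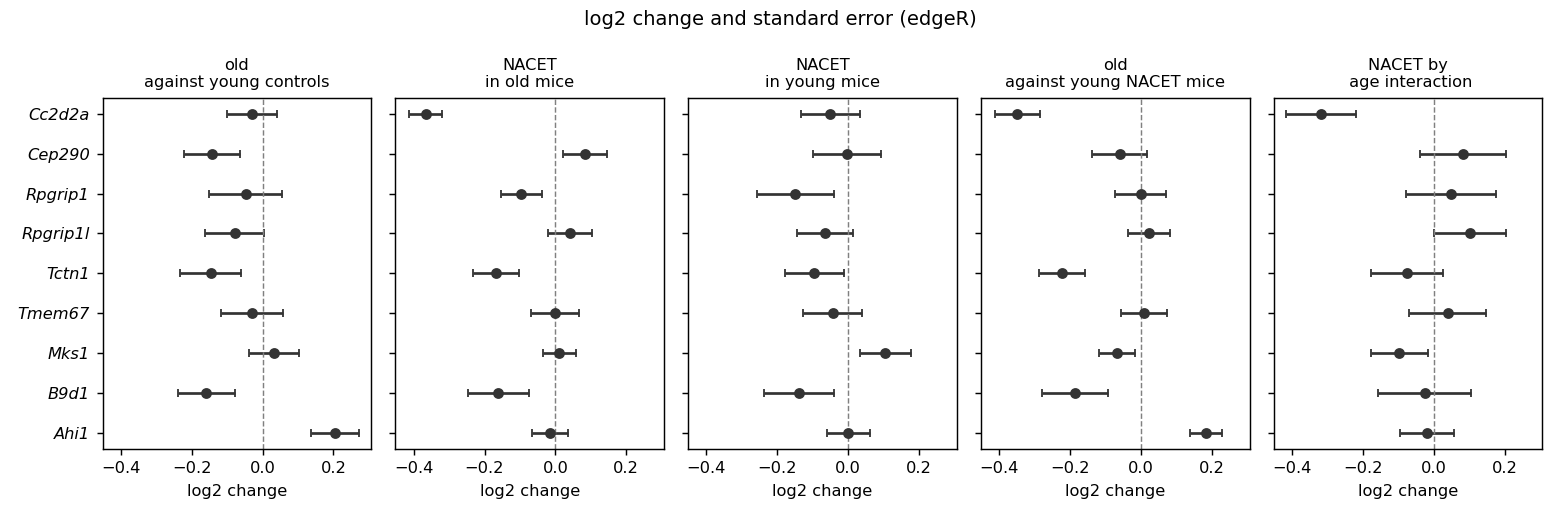
log2 change of each member in 5 comparisons, with the standard error of the edgeR fit as bars and a dashed line at 0. Cc2d2a lies at -0.37, -0.35 and -0.32 in the panels that involve old NACET mice, and Ahi1 lies at 0.20 and 0.18 in the panels of age.

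Within groups, some members varied together from library to library. Of 36 pairs, 27 had a positive Pearson r between their deviations from the group means of log2 CPM (median 0.258), and 4 passed the permutation test within groups (adjusted over 36 pairs). The libraries of each point share their depth and scaling. The share of pairs that would pass among all genes was not computed, so the ties are not read as particular to the members. For Cc2d2a the median r with all genes of at least 10 CPM was 0.0101. The scaffold genes Cep290 and Rpgrip1l were closely tied (r = 0.868, permutation p = 2e-05, adjusted p = 0.00072, Spearman's rho 0.857 with permutation p = 0.00011 and adjusted p = 0.00144, n = 20). Leaving out the 2 libraries farthest from the median of Cep290 gave r = 0.824.

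Tmem67 varied with both. Its r with Cep290 was 0.893 (permutation p = 0.00017, adjusted p = 0.00306, rho 0.844 with permutation p = 0.00044 and adjusted p = 0.00396, 0.840 without the 2 farthest libraries). Its r with Rpgrip1l was 0.803 (permutation p = 0.00049, adjusted p = 0.00588, rho 0.847 with permutation p = 9e-05 and adjusted p = 0.00144, 0.728 without the 2 farthest). Tctn1 and Mks1 formed the other pair (r = 0.756, permutation p = 0.00184, adjusted p = 0.0166, rho 0.824 with permutation p = 0.00012 and adjusted p = 0.00144, 0.714 without the 2 farthest). Age cohorts within groups hold 2 or 4 mice and were too small for values of their own. Cc2d2a passed with none of the other 8 members, its highest r being 0.518 with B9d1 (permutation p = 0.0268, adjusted p = 0.138, rho 0.558 with permutation p = 0.0191 and adjusted p = 0.114, 0.385 without the 2 farthest) and 0.518 with Ahi1 (permutation p = 0.0317, adjusted p = 0.143, rho 0.350 with permutation p = 0.144 and adjusted p = 0.325, 0.325 without the 2 farthest).

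**Figure D5:**
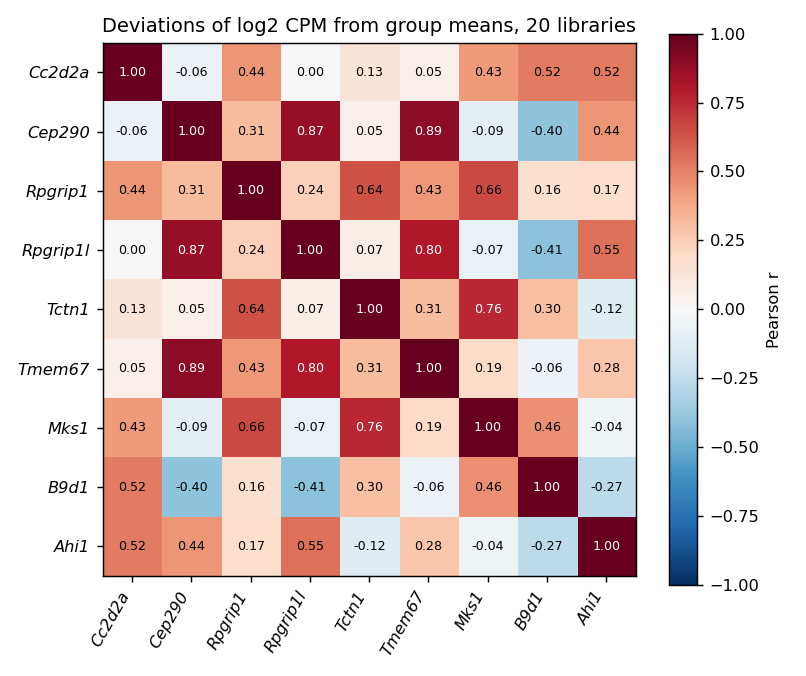
Pearson r between the members' deviations of log2 CPM from their group means over 20 libraries, from -1 (blue) to 1 (red). Cep290, Rpgrip1l and Tmem67 form a block of 0.80 to 0.89, and Tctn1 with Mks1 reaches 0.76.

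The genes most like Cc2d2a over the 20 libraries, by Pearson r of log2 CPM among 10365 genes with a mean of at least 10 CPM, were Mast2 (0.93), Gm16862 (0.88), Glp2r (0.86), Dip2b (0.85) and Shroom3 (0.85). Mast2, a kinase that associates with microtubules, had 272 ± 12.1 CPM in old controls (SD, n = 4) and 214 ± 19.2 CPM in old NACET mice (SD, n = 6). By deviations from the group means the nearest were Gm14508 (0.82), Nol10 (0.81), Dcaf7 (0.81), Mast2 (0.79) and Dhh (0.78). Among the members B9d1 ranked 92 and Tctn1 167 by the former measure (r = 0.72 and 0.66), which includes the group difference that Cc2d2a was chosen by. By deviations from the group means B9d1 ranked 309, Ahi1 304 and Tctn1 3591 (r = 0.52, 0.52 and 0.13). These likenesses are descriptions without a test.

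The other genes of the cilium base were taken from 4 lists by role, 44 genes in all, and each passed the filter. They comprise 11 further MKS module genes, 11 of the nephronophthisis (NPHP) and inversin modules, 12 Joubert genes of the ciliary membrane and axoneme, and 10 of the distal appendages and basal body. Between old and young controls 0 of 44 were called by edgeR, against 1.42% of all genes. DESeq2 called 1, an unadjusted p under 0.05 was found for 7, and the median log2 difference was -0.03. Under NACET in old mice 0 of 44 were called by edgeR and 1 by DESeq2, against 0.543% of all genes, while 3 had an unadjusted p under 0.05 (median 0.02). Under NACET in young mice 0 of 44 were called by edgeR, against 0.0% of all genes, and 0 by DESeq2, while 0 had an unadjusted p under 0.05 (median -0.03). For the interaction 0 of 44 were called by edgeR and 0 by DESeq2, against 0.0% of all genes, while 1 had an unadjusted p under 0.05 (median 0.02).

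Between old and young NACET mice 3 of 44 were called, 1 higher and 2 lower, against 4.88% of all genes, with a median log2 difference of -0.01. Tctn2, the paralog of Tctn1 in the MKS complex, fell by 0.23 (SE 0.06, edgeR adjusted p = 0.0285), from 40.4 ± 2.62 to 34.5 ± 2.51 CPM (SD, n = 6 each). Ttbk2, the kinase that starts cilium assembly at the mother centriole, rose by 0.29 (SE 0.07, edgeR adjusted p = 0.0319), from 114 ± 13.4 to 139 ± 10.1 CPM (SD, n = 6 each). In the untreated libraries, which these do not share, the old and young means were 37.0 ± 2.57 and 42.0 ± 2.23 CPM for Tctn2 and 132 ± 13.2 and 115 ± 7.12 CPM for Ttbk2 (SD, n = 4 each), without a call. The number called of 44 in NACET mice ran from 1 to 5 when single libraries were left out and was 1 with the replicate block. Whether Tctn2 or Ttbk2 kept its call in those fits is not given here. The count lies close to the share over all genes and is not read as a result about the lists.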

How the data were processed

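Retinas of 20 mice were sequenced as polyadenylated RNA in an unstranded protocol. The authors aligned reads to mm9 with TopHat2 2.1.0 and Bowtie and deposited raw counts per gene from HTSeq 0.11.2, counted without strand (submitters' processing notes and the study's methods); the gene annotation is not given in the sources used here. The row that names no gene held at most 0.00218% of counts and was left out. From the counts, edgeR 4.0.16 (R 4.3.3) fitted each pair of groups (all 20 libraries for the interaction) by its quasi-likelihood test with TMM scaling and filterByExpr, and Benjamini-Hochberg adjustment over all genes tested; called means an adjusted p under 0.05. The code was tested on simulated data. Lengths and positions came from GENCODE vM1 (mm9), promoters from RefSeq.

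The members, lists, motifs and tests were chosen with earlier results of these data known. Named were the 9 members, other ciliary genes that were called (up to 6 by p), and the 5 genes most like Cc2d2a by each measure. A called gene of the other ciliary lists is counted but not reported here. Alternatives were RLE scaling, DESeq2 1.42.0, other filters, a replicate block, covariates for sex and age, and leaving out each library or, chosen after seeing the data, 3 young NACET libraries. Replicate numbers did not pair the mice (5 of 18 same-numbered pairs had a correlation over 0.1).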

Additional observations from a re-analysis of the deposited data

Results flagged for a closer look

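Values of the members were compared with the others of their group by Dixon's test, in 36 sets of 4 or 6 libraries, where chance flags about 1 in 20. Cc2d2a in young NACET replicate 1 stood apart at 130.28 CPM from the other 5, which held 101.5 to 107.9 CPM. Rpgrip1 in young control replicate 1 stood apart at 634.79 CPM from the other 3, which held 871 to 899 CPM. Leaving these libraries out did not give a call for either gene in the comparison of NACET with control in young mice.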

How the results depend on the processing

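Cc2d2a in old NACET against old control mice kept its direction in every alternative, with log2 differences of -0.39 to -0.33 in the fits. The difference relative to the rod genes, given above, was smaller. The call there, 1 member, is that of Cc2d2a and chose the gene, so nothing is read from its being kept or lost. The number called became 0 with all 4 groups in one fit and with 668-day mice alone. It also became 0 with age cohort as a covariate and without the libraries that stand apart. The cause was not tested. The fits of 668-day mice and without the libraries that stand apart hold fewer mice, while the others leave out none. Relative to the rod genes, Cc2d2a differed by 0.12 between old and young controls, -0.20 between old and young NACET mice and 0.0069 for NACET in young mice. Members called between old and young NACET mice went from 2 to 1 with the replicate block, and likewise without the young NACET libraries that carry corneal genes. Cc2d2a is included in these counts, and nothing is read from its part in them. With the replicate block, other ciliary genes called went from 3 to 1. Of the other ciliary genes, DESeq2 called 1 between controls, 1 under NACET in old mice and 6 between NACET mice. The fit of all 4 groups called 1 between controls. In NACET mice there were 6 with sex as a covariate, 5 in labelled males and 1 without old NACET replicate 1.

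Signs of tested values turned only for members that were not called. Between controls, with sex as a covariate, in labelled males and in labelled males without old control replicate 4, Rpgrip1 was at 0.083, 0.084 and 0.091 and Tmem67 at 0.021, 0.022 and 0.018. For NACET in young mice, Cc2d2a was at 0.0011 without the young NACET libraries that carry corneal genes, and Cep290 was at 0.0012 without a filter, 0.0005 with all groups, 0.021 with sex, 0.18 with batch tag and 0.18 in 119-day mice. There Rpgrip1l was at 0.044 and 0.041 and Tmem67 at 0.060 and 0.064 with batch tag and in 119-day mice, Tctn1 at 0.034 in labelled males, and Ahi1 at -0.025 with the replicate block, -0.0006 with sex and -0.087 in labelled males. Between NACET mice, Cep290 was at 0.038 with sex and 0.031 in labelled males. Rpgrip1 was at 0.0002 without a filter, 0.0005 at 1 CPM, 0.0032 with the replicate block, 0.0115 with sex and 0.0051 in labelled males. It was at 0.0272 without the young NACET libraries with corneal genes and at 0.0155 without old NACET replicate 1, where Tmem67 was at -0.0006. Among values given without a test, those under NACET in old mice turned for Tmem67 (0.00017 with DESeq2, 0.032 without the libraries that stand apart, 0.0015 without a filter, 0.0066 with the replicate block, 0.048 in 668-day mice, 0.046 with cohort), Mks1 (-0.015 with the block, -0.0001 with cohort) and Rpgrip1l (-0.0078 without the libraries that stand apart), and those of the interaction for B9d1 (0.018 with sex, 0.063 without the libraries that stand apart), Ahi1 (0.067 in labelled males), Rpgrip1 (-0.074 in labelled males) and Tctn1 (0.0168 without the young NACET libraries with corneal genes).

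When single libraries were left out, members called between NACET mice, Cc2d2a included, ran from 1 to 3. Other ciliary genes called ran from 1 to 5 there and from 0 to 1 between controls. Log2 values that changed sign ran, for NACET in young mice, from -0.11 to 0.021 (Cc2d2a), -0.046 to 0.049 (Cep290), -0.089 to 0.0023 (Tmem67) and -0.040 to 0.033 (Ahi1). Between controls they ran from -0.079 to 0.051 (Tmem67) and -0.014 to 0.059 (Mks1), with Cc2d2a at -0.081 to 0.045, and between NACET mice from -0.043 to 0.038 (Rpgrip1), -0.013 to 0.045 (Rpgrip1l) and -0.036 to 0.032 (Tmem67). Values given without a test changed sign for NACET in old mice (Ahi1 at -0.053 to 0.031, Mks1 at -0.011 to 0.041, Tmem67 at -0.073 to 0.047) and the interaction (Ahi1 at -0.057 to 0.028, B9d1 at -0.075 to 0.020, Tmem67 at -0.032 to 0.089). Counts over all genes, 234, 90, 0, 795 and 0 in the order of the comparisons of controls, NACET in old mice, NACET in young mice, NACET mice and the interaction, ran over the other settings from 53 to 721, 0 to 375, 0 to 6, 422 to 1326 and 0 to 86, and with single libraries left out from 113 to 414, 8 to 110, 0 to 8, 478 to 922 and 0 to 77. The least abundant member, B9d1, rests on 199 counts in its lowest library.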
